A study of Mus musculus with 64 samples.

Results

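The comparison described here sets IFN-beta against LPS in mouse macrophages after 8 h, in 6 of the 64 arrays of the series. Bone marrow from the femurs of male BALB/c mice of 7 to 8 weeks was grown into macrophages with CSF1, the growth factor of this lineage, and the cells sat at 200000 a well in 10000 U/ml CSF1 when treatment began on day 7. Of these arrays, 2 hold cells given IFN-beta at 10 U/ml for 8 h, 2 hold cells given LPS at 5 ng/ml for 8 h, and 2 hold untreated cells at 0 h. All 6 share the strain, the CSF1 and the absence of any genetic change. Each array read 250 ng of total RNA from its own well, with 2 wells a group, and the labels do not tie the wells to separate animals, so the p-values measure the spread between wells. No untreated wells at 8 h were used here, so in a change over 0 h the treatment and 8 h more in culture cannot be told apart. Later sections also read BALB/c wells at other times and BALB/c wells given IFN-gamma, the type II interferon, at 10 U/ml. They further read wells from C57BL/6 mice of 7 to 8 weeks, given LPS at 5 ng/ml for 8 h or untreated at 0 h.

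LPS, a component of the outer membrane of Gram-negative bacteria, is sensed by TLR4 on macrophages. TLR4 signals through the adaptor MYD88 to NF-kB and AP-1, and through the adaptor TRIF to IRF3, which switches on the gene of IFN-beta. IFN-beta that leaves the cell binds the type I interferon receptor IFNAR, which signals through JAK1 and TYK2 to transcription factors that bind the interferon-stimulated response element (ISRE). A macrophage given LPS can therefore use both routes, and a macrophage given IFN-beta starts at the receptor. The comparison asks which genes move to the same level by either stimulus and which answer to only 1 of them.

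The deposited values were linear array intensities between 2.493 and 17782, analysed as log2, and 18820 genes were read. The 2 wells of a group correlated at r = 0.9973 with IFN-beta, 0.9953 with LPS and 0.9975 at 0 h over all genes, and the wells differed by over 1 log2 for 2 genes with IFN-beta, 54 with LPS and 7 at 0 h. Macrophage genes summed to intensities of 60120 to 61510 with IFN-beta, 57930 to 58240 with LPS and 61120 to 62510 at 0 h, with 20 genes measured. Of these, Cx3cr1 and Fcgr1 were higher and Mertk lower with IFN-beta than with LPS, and Cx3cr1 lost its call without LPS well 1 (0.91) and with quantile normalisation (0.94). None of the 18 measured granulocyte, lymphocyte and erythroid markers passed the test in any of the 3 comparisons. Of 6 stromal markers, Dcn and Pdgfrb rose only with LPS (summed level of the 6 markers 196.2 to 202.2 with IFN-beta, 759.6 to 793.2 with LPS and 212 to 231.3 at 0 h), and of 7 dendritic cell markers Ccr7 rose only with LPS (summed level 150.8 to 152 with IFN-beta, 241.4 to 243 with LPS and 141.4 to 148.7 at 0 h), with 4 of the 7 dim in all 6 arrays. The part of other cell types in the results was not tested. In these bulk samples fewer cells of a type and less RNA per cell cannot be told apart.

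At 8 h LPS moved more genes than IFN-beta, and the genes that both raised took in most of the antiviral list. IFN-beta raised 427 genes over 0 h (2.27% of all genes tested) and lowered 305 (1.62%), whereas LPS raised 978 (5.2%) and lowered 1394 (7.41%). Set directly against each other, the stimuli differed in 1362 genes (7.24%), of which 748 were higher with IFN-beta (3.97%) and 614 were lower (3.26%). A gene was called at a limma adjusted p under 0.05 with a log2 difference of at least 1, which is 2-fold. IFN-beta, LPS or both raised 1076 genes, and 329 of these were raised by both.

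The 1076 genes were then parted by calls together with intervals, so that a missed threshold alone did not make a gene equal. A gene raised by both counted as equal where the 95% interval of the IFN-beta minus LPS difference lay within 1 log2 of 0. A gene counted as raised only by 1 stimulus where it differed between the stimuli and the interval for the other stimulus lay under a rise of 1 log2. By these rules 198 genes were equal in both (1.05% of all genes), 51 were raised only by IFN-beta (0.271%) and 396 only by LPS (2.1%). Another 6 were raised by both but more with IFN-beta (0.0319%), and 70 by both but more with LPS (0.372%). The remaining 355 (1.89%) met no class. The equal genes made up 46.4% of the genes that IFN-beta raised and 20.2% of those that LPS raised, while the genes of a single stimulus made up 11.9% and 40.5%.

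**Figure D1:**
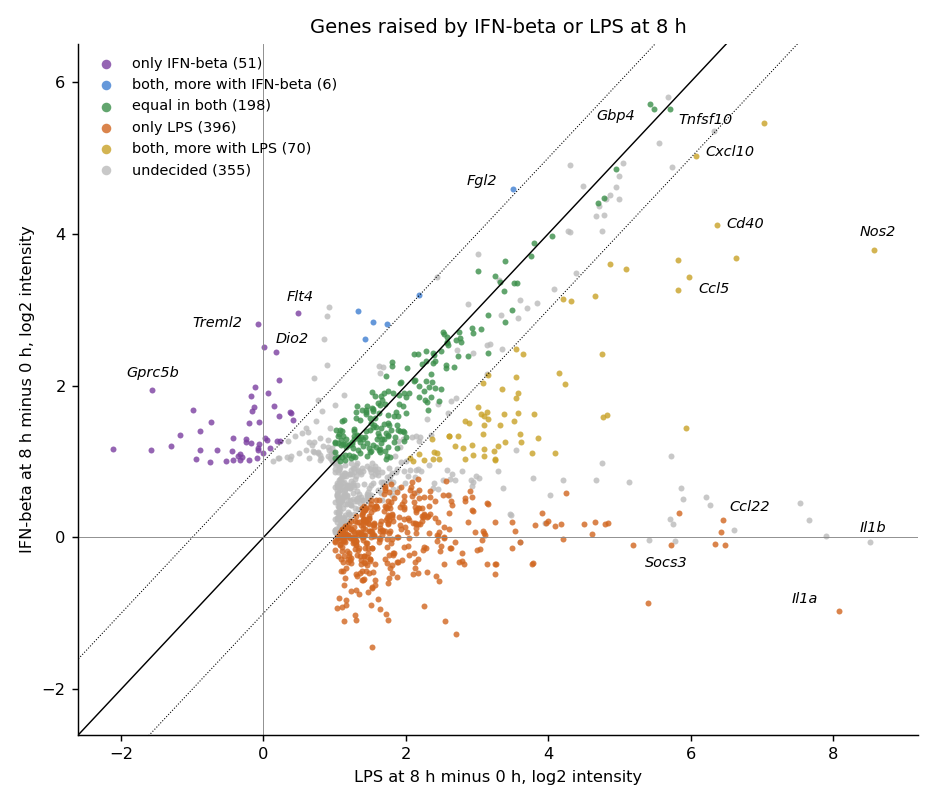
Change over 0 h of the 1076 raised genes (log2 intensity, means of 2 arrays a group), with IFN-beta on the vertical and LPS on the horizontal axis; each point is a gene, coloured by class, the solid line marks equal changes and the dotted lines a difference of 1 log2. The equal genes lie along the solid line up to Tnfsf10 and Gbp4, the genes raised only by LPS lie flat along the horizontal axis as far as Il1a, and the 51 genes raised only by IFN-beta form a smaller group on the left.

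The equal genes held 17 of the 27 antiviral effector genes measured. Ifit3, whose product binds viral RNA together with its relatives, read 11.89 and 11.87 log2 intensity with IFN-beta, 11.86 and 11.73 with LPS, and 7.95 and 8.04 at 0 h. Mx1, a gene of the dynamin-like GTPase family, read 10.71 and 10.67 with IFN-beta, 10.78 and 10.80 with LPS, and 5.79 and 5.89 at 0 h. In both genes all 4 treated wells lay far above both untreated wells, and the stimuli differed far less than either rise. The IFN-beta minus LPS difference was 0.09 ± 0.41 (SE, n = 2 each, adjusted p = 0.93) for Ifit3 and -0.10 ± 0.40 (adjusted p = 0.91) for Mx1. Both differences kept their size without any 1 of the 4 treated wells (0.02 to 0.15 for Ifit3, -0.12 to -0.08 for Mx1), but their intervals then reached past 1 log2, as did those of Isg20, Cmpk2 and Phf11a.

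Of the 3 equal genes whose promoters were read singly, Ifit3 is shown because it held ISRE matches, whereas the 250 bases before the start of Tnfsf10 held none of the motifs searched and the 3 windows of Isg20 held 1 GAS and 1 NF-kB match. The 250 bases before its start lie at chr19:34583279-34583528 on the plus strand of GRCm38.p6 (RefSeq). Capitals mark, from the left, 2 matches to the ISRE core (GAAA, any 2 bases and GAAA) on the opposite strand, at -156 to -147 and at -122 to -113, and an AP-1 match (TGANTCA) at -56 to -50.
Ifit3: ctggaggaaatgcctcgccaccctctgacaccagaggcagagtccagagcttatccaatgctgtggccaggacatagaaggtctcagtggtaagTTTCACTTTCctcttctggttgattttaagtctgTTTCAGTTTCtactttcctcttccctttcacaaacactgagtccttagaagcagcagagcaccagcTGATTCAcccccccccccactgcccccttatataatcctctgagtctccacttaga

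Other equal genes with large rises carried out quite different tasks. Tnfsf10, the death ligand TRAIL, read 10.19 and 10.15 with IFN-beta, 10.23 and 10.24 with LPS, and 4.84 and 4.22 at 0 h, a rise of 49.9-fold with IFN-beta and 52.3-fold with LPS. Gbp4, a guanylate-binding protein of cell-autonomous defence, read 10.06 and 9.97 with IFN-beta, 9.86 and 9.88 with LPS, and 4.65 and 4.10 at 0 h. Cd86, a ligand that co-stimulates T cells, read 9.43 and 9.39 with IFN-beta, 9.19 and 9.23 with LPS, and 5.99 and 5.93 at 0 h. The treated wells of the 3 genes lay together and apart from the untreated ones, and the differences between stimuli were -0.07 ± 0.37 for Tnfsf10, 0.15 ± 0.33 for Gbp4 and 0.20 ± 0.17 for Cd86 (SE, n = 2 each). For Cd86 the 95% interval ran from -0.14 to 0.54, so a difference of 2-fold lay outside it. Without IFN-beta well 1 the difference of Tnfsf10 was -0.09 and without IFN-beta well 2 that of Gbp4 was 0.19, with an interval past 1 log2 in both cases.

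The pathway lists were written with earlier results of these data known and hold genes described above, such as Ifit3 and Mx1. They are therefore a description and not separate support. Over all genes the medians were -0.02 with IFN-beta and -0.04 with LPS, and 2.27% and 5.2% of the genes were raised. Of 27 measured antiviral effector genes, 25 rose with IFN-beta and 26 with LPS, with a median change of 2.15 with IFN-beta and 2.56 with LPS. Of the 27, 17 were equal, among them Oas1a, Oas2 and Oas3, which make the activator of RNase L, Eif2ak2, the kinase PKR, and Bst2, which tethers budding virus. Another 8 were undecided, Trim21 rose more with LPS, and Ifitm3 was not called (change of 0.30 with IFN-beta and 0.46 with LPS). All 9 measured interferon-inducible GTPases rose with both, 4 of them equally (Gbp4, Gbp8, Gbp9 and Irgm1), although the intervals of Gbp8 passed 1 log2 without IFN-beta well 1 (difference 0.56) or LPS well 1 (0.26).

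Genes that prepare peptides for MHC class I were raised in part by both stimuli. Of 14 measured genes on that list, 8 rose with IFN-beta and 12 with LPS (2.27% and 5.2% of all genes). None differed between the stimuli (7.24% of all genes), and 8 were equal. These 8 were the peptide transporter genes Tap1 and Tap2, Tapbpl, the immunoproteasome genes Psmb8, Psmb9 and Psmb10, H2-T23, and Nlrc5, the transactivator of class I genes. Nlrc5 averaged 11.20 log2 with IFN-beta, 11.54 with LPS and 8.98 at 0 h, with an interval of the difference from -0.74 to 0.07. The light chain B2m and the heavy chain H2-K1 were not called, with changes of 0.11 and 0.34 with IFN-beta and 0.15 and 0.34 with LPS.

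Sensors and transducers of the response were split. Of 23 measured pattern recognition genes, 11 rose with IFN-beta and 15 with LPS (2.27% and 5.2% of all genes). The equal ones were the receptors of viral RNA Tlr3, Tlr7, Ifih1, Ddx58 and Dhx58, together with the inflammatory caspases Casp1 and Casp4. Tlr3 read 10.15 and 10.16 with IFN-beta, 10.10 and 10.11 with LPS, and 7.89 and 7.86 at 0 h, a difference of 0.05 ± 0.14 (SE, n = 2 each). Of the same list Tlr1, Nlrp3 and Clec4e rose only with LPS, and Nod2, a sensor of bacterial peptidoglycan, rose with both but more with LPS. Of 18 interferon signalling genes, Stat2, Stat3, Irf7, Nmi and Usp18 were equal. At 8 h the feedback inhibitors Socs3 and Cish rose only with LPS, and Jak2, Irf1 and Socs1 rose with both but more with LPS. At 2 h, however, Cish averaged 6.88 with IFN-beta and 8.22 with LPS, against 4.63 at 0 h, so its class is that of 8 h. Usp18 left the equal class without IFN-beta well 2 (-0.41), LPS well 1 (-0.35) or LPS well 2 (-0.33).

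**Figure D2:**
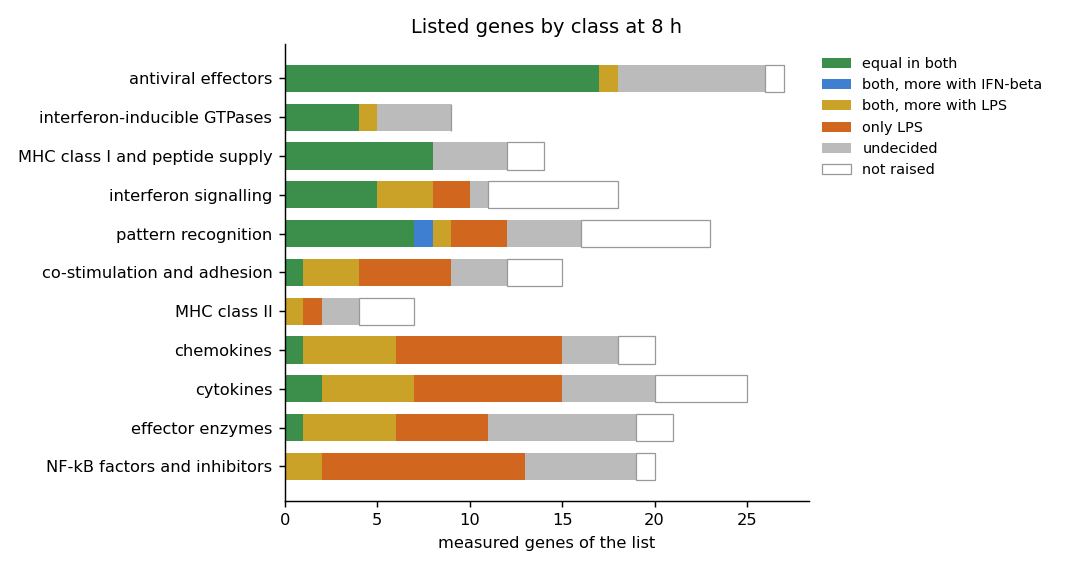
Measured genes of 11 lists (horizontal axis, number of genes) by class at 8 h; white marks genes that neither stimulus raised. The equal class (1.05% of all genes) fills 17 of 27 antiviral genes, while 11 of 20 NF-kB genes and 9 of 20 chemokines were raised only by LPS (2.1%). No list holds a gene raised only by IFN-beta, a class of 0.271% of all genes.

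The 51 genes raised only by IFN-beta (0.271% of all genes) were fewer and rose less than the equal ones. None of them belonged to the lists, but at that share few members would fall in lists of this size anyway. Dio2, the deiodinase that activates thyroid hormone, read 9.80 and 9.79 log2 with IFN-beta, 7.35 and 7.25 with LPS, and 7.33 and 7.25 at 0 h. The wells given LPS lay among the untreated ones, and the gene stood 5.64-fold higher with IFN-beta than with LPS (2.50 ± 0.15 log2, SE, n = 2 each, adjusted p = 2.3e-16). At 24 h Dio2 averaged 8.98 with IFN-beta and 8.55 with LPS, so its class is that of 8 h. Treml2, a receptor of the TREM family, read 9.31 and 9.12 with IFN-beta, 6.00 and 6.64 with LPS, and 6.44 and 6.36 at 0 h. Flt4, the VEGF receptor VEGFR-3, read 7.54 and 7.72 with IFN-beta, 5.01 and 5.31 with LPS, and 4.67 and 4.70 at 0 h. In both genes the IFN-beta wells lay above every other well, by 7.44-fold over LPS for Treml2 and 5.54-fold for Flt4. Flt4 lay closest to the limit of the class, since the interval of its change with LPS (0.48) reached 0.99. The promoter window of Dio2, at chr12:90739039-90739288 on the minus strand of GRCm38.p6 (RefSeq), is shown as a contrast to that of Ifit3, because it held no match to the ISRE, GAS, NF-kB or AP-1 motifs searched, and neither did those of Flt4 and Gprc5b.
Dio2: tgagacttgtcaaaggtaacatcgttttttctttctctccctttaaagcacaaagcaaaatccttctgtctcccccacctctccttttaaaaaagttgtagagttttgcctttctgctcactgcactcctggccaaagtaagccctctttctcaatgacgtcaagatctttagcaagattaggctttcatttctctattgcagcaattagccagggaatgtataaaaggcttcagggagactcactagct

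In 5 of the 51 genes LPS moved the level the other way. Gprc5b, an orphan G protein-coupled receptor, read 9.93 and 9.85 with IFN-beta, 6.35 and 6.41 with LPS, and 7.94 and 7.95 at 0 h, so it rose by 1.95 log2 with IFN-beta and fell by 1.57 log2 with LPS (adjusted p = 7.4e-12 and 3.4e-10). The 3 groups did not overlap, and the stimuli differed 11.4-fold. Sox4, a transcription factor gene, showed the same order, with 7.46 and 7.34 with IFN-beta, 3.75 and 4.51 with LPS, and 6.08 and 6.40 at 0 h. Gpr162, Mex3b and Serpinb6b completed the 5 genes that IFN-beta raised and LPS lowered (the last 3 named after their values were seen). Fos, a subunit of AP-1, averaged 8.34 with IFN-beta, 5.67 with LPS and 6.66 at 0 h. Its change of -0.99 with LPS was just short of a call, and IFN-beta stood 6.32-fold above LPS. This order was that of 8 h. At 1 h Fos averaged 5.63 with IFN-beta and 7.72 with LPS (not tested), and at 24 h the stimuli differed by 0.12 log2.

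The class also took in Il21r, the receptor of IL-21, Abcb1a, the drug efflux pump P-glycoprotein, and the cytoskeletal genes Ank2, Map2 and Tppp3, with differences between the stimuli of 1.59 to 2.10 log2. Gnal, a G protein subunit, and the membrane transporter gene Slc4a11 stood 1.85 and 1.84 log2 above LPS. Chosen after their values were seen, the growth factor genes Vegfa and Angpt2 belonged to the class too. Vegfa averaged 8.04 with IFN-beta, 6.24 with LPS and 6.90 at 0 h, and Angpt2 averaged 6.90 with IFN-beta, 5.15 with LPS and 5.90 at 0 h.

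**Figure D3:**
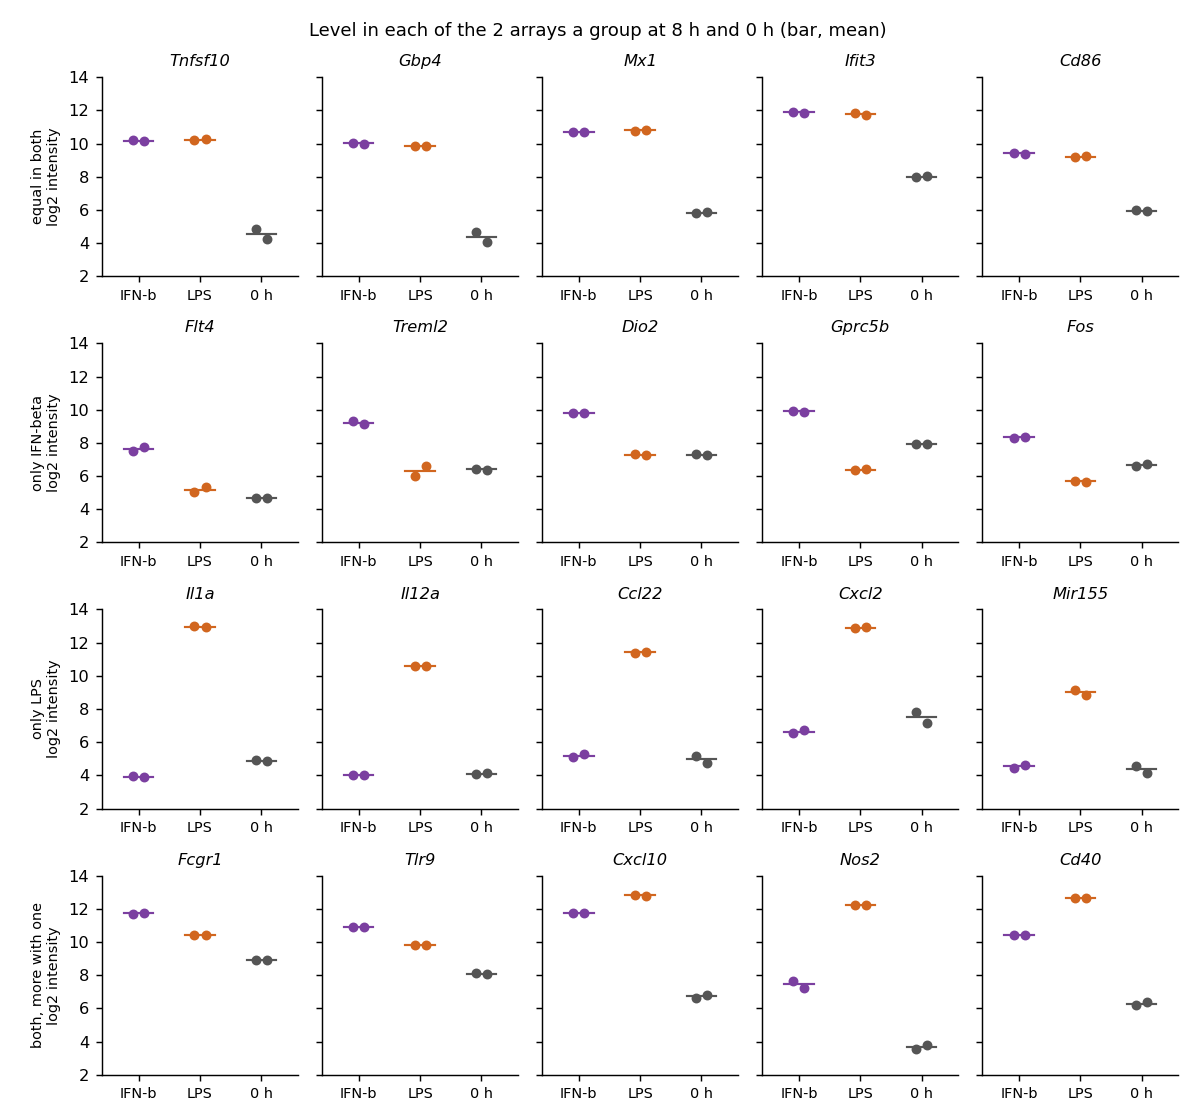
Level of 20 genes in each array (vertical axis, log2 intensity) with IFN-beta at 8 h, LPS at 8 h and at 0 h; points are arrays and bars the mean of the 2 arrays. The rows show genes equal in both, genes of IFN-beta only, genes of LPS only (Il1a near 4 and 13 log2), and genes raised by both but more with IFN-beta (Fcgr1, Tlr9) or more with LPS (Cxcl10, Nos2, Cd40).

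The 396 genes raised only by LPS held the classical inflammatory mediators. Il1a, the cytokine IL-1 alpha, read 3.95 and 3.89 log2 with IFN-beta, 12.98 and 12.95 with LPS, and 4.92 and 4.85 at 0 h, a difference of -9.04 ± 0.79 log2 between IFN-beta and LPS (SE, n = 2 each, adjusted p = 4e-12). Il12a, a subunit of IL-12, read 4.00 and 4.00 with IFN-beta, 10.60 and 10.57 with LPS, and 4.08 and 4.12 at 0 h, a difference of -6.59 ± 0.21 log2 (adjusted p = 2.8e-24). Both IFN-beta wells stayed at the untreated level or under it in these genes, and both LPS wells lay over 6 log2 above. For Il1a this order is that of 8 h. At 2 h with IFN-beta Il1a averaged 6.29, against 4.89 at 0 h, and Il12a averaged 4.09, against 4.10 (not tested). The other IL-12 subunit gene, Il12b, differed by -5.30 ± 0.31 log2. The IFN-beta wells of Il1a, Il12a, Il12b, Itgb8, Il1b and Il6 all read under 4.49 log2, the 40th percentile of all values, so the size of these differences is not exact and no fold is given for them. Tnf, which untreated cells already expressed, read 10.89 and 10.55 with IFN-beta, 13.02 and 12.99 with LPS, and 10.22 and 9.99 at 0 h, and its change with IFN-beta (0.61) had an adjusted p of 0.00067 without reaching 1 log2.

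Of the 20 chemokine genes measured, 9 were in this class. Cxcl2, which recruits neutrophils, read 6.56 and 6.71 with IFN-beta, 12.88 and 12.94 with LPS, and 7.84 and 7.17 at 0 h. Cxcl1, which binds the same receptor, read 5.06 and 5.51 with IFN-beta, 11.75 and 11.66 with LPS, and 5.23 and 5.50 at 0 h. Ccl22, which attracts regulatory T cells, read 5.09 and 5.31 with IFN-beta, 11.40 and 11.45 with LPS, and 5.17 and 4.77 at 0 h. The 3 genes stood 77.2-fold, 85.9-fold and 74.8-fold lower with IFN-beta than with LPS (adjusted p = 4.8e-09, 2.2e-14 and 1.2e-19), and no IFN-beta well overlapped an LPS well. The promoter of Cxcl2 was added to those shown after its values were seen, as an example of an NF-kB match. The promoters read by rank in this class held no NF-kB match: that of Il1a held an AP-1 match at -12 to -6, and those of Il12a and Ccl22 held none of the motifs. The promoter of Cxcl2 lies at chr5:90903649-90903898 on the plus strand of GRCm38.p6 (RefSeq), and capitals mark a pair of overlapping matches to the NF-kB consensus, at -97 to -88 and -96 to -87.
Cxcl2: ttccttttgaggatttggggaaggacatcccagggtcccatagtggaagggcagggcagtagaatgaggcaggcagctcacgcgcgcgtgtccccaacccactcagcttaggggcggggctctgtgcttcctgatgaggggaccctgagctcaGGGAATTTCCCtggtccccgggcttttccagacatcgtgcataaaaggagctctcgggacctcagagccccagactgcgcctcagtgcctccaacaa

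Over the lists, 7 of 20 chemokines rose with IFN-beta and 18 with LPS (2.27% and 5.2% of all genes). Of the 20, 16 were lower with IFN-beta than with LPS (3.26% of all genes). The 9 raised only by LPS were Ccl2, Ccl3, Ccl7, Ccl22, Cxcl1, Cxcl2, Cxcl5, Cxcl16 and Cx3cl1, and Ccl12 alone was equal, at 7.34 and 7.21 with IFN-beta, 7.35 and 7.47 with LPS, and 4.66 and 4.65 at 0 h. Of 25 cytokine genes 7 rose with IFN-beta and 20 with LPS. The equal ones were Il1rn, which encodes the antagonist of the IL-1 receptor, and Tnfsf10. The gene of IFN-beta itself, Ifnb1, was dim, at 3.37 and 3.50 with IFN-beta, 4.59 and 4.09 with LPS, and 3.25 and 3.39 at 0 h. It rose with LPS by 1.02 log2 (adjusted p = 0.00096).

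NF-kB factors and their inhibitors answered mainly to LPS. Of 20 measured genes 2 rose with IFN-beta and 19 with LPS (2.27% and 5.2% of all genes), with median changes of 0.57 and 2.06. Of the 20, 16 were lower with IFN-beta than with LPS (3.26% of all genes). Nfkbia, the inhibitor IkB alpha and a target of NF-kB, read 10.24 and 10.32 with IFN-beta, 12.31 and 12.31 with LPS, and 9.91 and 10.07 at 0 h (-2.03 ± 0.12 log2 between the stimuli, adjusted p = 4e-17). The 11 genes raised only by LPS also held Rel, the inhibitors Tnfaip3, Tnip1 and Tnip3, and the kinases Map3k8 and Ikbke. The IRAK family genes Irak2 and Irak3, and Zc3h12a and Birc3, completed them. Rela, the p65 subunit, was called by neither stimulus, with changes of 0.18 with IFN-beta and 0.60 with LPS.

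LPS alone also raised the gene of miR-155, a microRNA induced in activated macrophages. Its probe set reads the primary gene Mir155 and not the mature RNA, and read 4.48 and 4.65 with IFN-beta, 9.16 and 8.87 with LPS, and 4.56 and 4.17 at 0 h. The LPS wells lay over 4 log2 above the other 4 wells, and IFN-beta stood 21.8-fold below LPS (adjusted p = 7.2e-16). Its main mature form comes from chr16:84714143-84714165 on the plus strand (RefSeq, GRCm38.p6), and capitals mark the seed, bases 2 to 8.
mmu-miR-155-5p: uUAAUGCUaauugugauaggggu

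Further genes raised only by LPS were the feedback inhibitor Socs3, the adhesion receptor genes Itgb8 and Vcam1, the protease gene Adamts4 and Lad1, which encodes an anchoring filament protein. Socs3 read 5.71 and 5.46 with IFN-beta, 11.41 and 11.41 with LPS, and 5.75 and 5.63 at 0 h, 56.7-fold lower with IFN-beta. Lad1 stood 45.8-fold and Vcam1 24.5-fold lower with IFN-beta than with LPS, and Itgb8 and Adamts4 differed by -6.36 and -4.64 log2. Of 15 co-stimulation and adhesion genes 6 rose with IFN-beta and 12 with LPS (2.27% and 5.2% of all genes). Icosl, Vcam1, Slamf1, Itgal and Itga5 were raised only by LPS, and Cd86 alone was equal. Of 7 MHC class II genes 1 rose with IFN-beta and 4 with LPS: H2-Ab1 rose only with LPS and Ciita, the class II transactivator, with both but more with LPS.

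Between the extremes, 6 genes rose with both stimuli but more with IFN-beta, and 70 with both but more with LPS. More with IFN-beta were Fcgr1, Tlr9, Angpt1, Flt1, Fgl2 and Slamf8. Fcgr1, the high-affinity IgG receptor, read 11.72 and 11.76 with IFN-beta, 10.45 and 10.44 with LPS, and 8.91 and 8.90 at 0 h, and Tlr9, the receptor of unmethylated DNA, read 10.90 and 10.92 with IFN-beta, 9.85 and 9.84 with LPS, and 8.14 and 8.07 at 0 h. Both genes formed 3 separate levels, with differences of 1.30 ± 0.16 and 1.07 ± 0.28 log2 (SE, n = 2 each, adjusted p = 1.1e-08 and 0.0032). Angpt1, a ligand of the receptor TIE2, stood 1.66 ± 0.19 log2 higher with IFN-beta (adjusted p = 2e-09). The calls of the other 3 depended on single wells. Flt1 (1.19) fell short without LPS well 1 (0.96), Fgl2 (1.08) without IFN-beta well 1 (0.93) or LPS well 1 (1.01), and Slamf8 (1.01) without IFN-beta well 2 (0.93) or LPS well 1 (0.98), with arrays centred on their medians (0.97) and with quantile normalisation (0.89).

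The 70 genes raised by both but more with LPS held interferon targets as well as inflammatory genes. Cxcl10, a chemokine that attracts activated T cells, read 11.75 and 11.77 with IFN-beta, 12.82 and 12.80 with LPS, and 6.64 and 6.82 at 0 h. IFN-beta alone took it 32.6-fold above 0 h, and LPS 67.7-fold, a difference of -1.05 ± 0.26 log2 (SE, n = 2 each, adjusted p = 0.0015). Nos2, the inducible nitric oxide synthase, read 7.66 and 7.23 with IFN-beta, 12.22 and 12.24 with LPS, and 3.54 and 3.78 at 0 h. It rose by 3.78 log2 with IFN-beta (dim at 0 h, so no fold is given), and its level was 27.7-fold lower with IFN-beta than with LPS (adjusted p = 2.6e-05). The promoter of Cxcl10 was likewise added after its values were seen, because it joins the motifs that the promoters of Ifit3 and Cxcl2 hold apart. It lies at chr5:92348890-92349139 on the minus strand of GRCm38.p6 (RefSeq), and capitals mark an ISRE match at -213 to -204, an NF-kB match at -159 to -150, overlapping NF-kB matches at -104 to -95 and -103 to -94, and an AP-1 match at -74 to -68.
Cxcl10: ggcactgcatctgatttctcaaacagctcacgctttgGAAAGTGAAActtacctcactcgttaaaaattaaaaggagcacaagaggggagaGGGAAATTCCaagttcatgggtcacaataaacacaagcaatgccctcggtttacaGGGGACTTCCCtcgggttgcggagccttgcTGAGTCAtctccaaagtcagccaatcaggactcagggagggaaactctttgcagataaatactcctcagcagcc

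Cd40, the receptor of the T cell ligand CD40L, averaged 10.41 with IFN-beta, 12.66 with LPS and 6.29 at 0 h, so that IFN-beta raised it 17.4-fold and LPS 82.8-fold. Cd69, an activation marker, rose 12.8-fold with IFN-beta and 99.7-fold with LPS. Il27, Hcar2, Tnfsf15 and Traf1 followed with differences of -4.49, -3.21, -3.18 and -2.98 log2. Irf1, a transcription factor of both pathways, averaged 10.40 with IFN-beta, 11.79 with LPS and 8.44 at 0 h. Among chemokines Ccl4, Ccl5, Cxcl9 and Cxcl11 were in this class beside Cxcl10. The pooled spread of Ccl5 was wide, and its difference of -2.54 (adjusted p = 0.012) lost the call without IFN-beta well 2 (-2.46), LPS well 1 (-2.55) or LPS well 2 (-2.53), and Cxcl11 did so without LPS well 2 (-0.93). Of 21 effector enzyme genes 7 rose with IFN-beta and 19 with LPS (2.27% and 5.2% of all genes). Acod1, which makes itaconate, Hdc, Slc7a2 and Upp1 rose with both but more with LPS, and Gch1, whose product makes the cofactor of nitric oxide synthase, was equal.

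The 355 undecided genes were those that missed a call of the difference or whose interval reached past a limit, 55 of them raised by both, 253 by LPS alone and 47 by IFN-beta alone. They included Il1b, Il6, Ptgs2, Ccl17 and Cxcl3, 5 of the 10 genes that stood lowest with IFN-beta against LPS. Il1b read 4.30 and 4.16 with IFN-beta, 12.84 and 12.80 with LPS, and 4.22 and 4.37 at 0 h, and Il6 read 3.67 and 3.87 with IFN-beta, 11.71 and 11.60 with LPS, and 3.80 and 3.70 at 0 h. Ptgs2, the inducible cyclooxygenase, read 5.56 and 6.13 with IFN-beta, 13.25 and 13.32 with LPS, and 5.46 and 5.78 at 0 h. In these 3 genes the IFN-beta wells lay at or near the untreated level, and the stimuli differed by -8.59 ± 0.93, -7.89 ± 0.56 and -7.44 ± 0.54 log2 (SE, adjusted p = 9.9e-10, 1.5e-14 and 3.2e-14). Their standard errors came from the pooled spread of all 64 arrays. With the 6 arrays alone these standard errors were 0.10, 0.11 and 0.20 and the 3 genes were raised only by LPS, while Isg15, Ifit1, Rsad2 and Iigp1 became equal. Of the 355 genes, 290 stayed undecided in that fit. The level of Il6 with IFN-beta is that of 8 h. At 4 h with IFN-beta Il6 averaged 5.87, against 3.75 at 0 h, and Il1b averaged 4.04, against 4.3 (not tested).

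The classes have no natural gap at their limits. Just inside the equal class lay Tent4a and Coa5, whose widest bounds were 0.99 and 0.99 log2, and just outside lay Zbp1 (1.00) and Trim30d (1.01). Just inside the class of LPS only were Lrp11 (0.99) and Dyrk2 (0.98), and just outside Ppm1l (1.02) and Ccnj (1.03). Inside the class of IFN-beta only were Flt4 (0.99) and Klrg2 (0.80), and outside it Fcgr4 (1.05) and Tnfsf8 (1.23). Of the 198 equal genes, 34 still differed at an adjusted p under 0.05 by less than 1 log2, 6 higher with IFN-beta and 28 higher with LPS.

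LPS lowered more genes than IFN-beta. By the mirrored rules 100 genes were lowered equally (0.531% of all genes), 25 only by IFN-beta (0.133%), 404 only by LPS (2.15%), 80 by both but more with LPS (0.425%) and 0 by both but more with IFN-beta, while 857 were undecided (4.55%). Ccnd1, the cyclin D1 that drives cells out of G1 under CSF1, read 12.41 and 12.40 with IFN-beta, 9.10 and 8.97 with LPS, and 12.17 and 12.23 at 0 h. The IFN-beta wells stayed with the untreated wells, and IFN-beta stood 10.4-fold above LPS (3.37 ± 0.10 log2, SE, n = 2 each, adjusted p = 2e-25). Of 26 cell cycle genes 9 fell with IFN-beta and 24 with LPS (1.62% and 7.41% of all genes), with medians of -0.90 and -1.94. Of the 26, 14 were higher with IFN-beta than with LPS (3.97% of all genes). The 10 genes that stood highest with IFN-beta over LPS all fell with LPS, Ccnd1, Gprc5b and Sox4 among them. Rasgrp3, Sh2d1b1, Cnr2, Cd300lb, Cd300lf, Rhov and Cyp2s1 stood 3.34 to 3.86 log2 higher with IFN-beta, each with a fall under LPS of 2.55 to 4.48 log2. Pparg, a nuclear receptor of lipid metabolism, averaged 9.60 with IFN-beta, 6.99 with LPS and 9.44 at 0 h.

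IFN-beta alone lowered 25 genes. C5ar1, the receptor of the complement fragment C5a, read 8.55 and 8.53 with IFN-beta, 10.21 and 10.28 with LPS, and 10.07 and 9.74 at 0 h. It fell by 1.36 log2 with IFN-beta (adjusted p = 9.4e-11). Trem1, a receptor that amplifies inflammation, averaged 3.72 with IFN-beta, 4.89 with LPS and 5.40 at 0 h, and its difference of -1.17 shrank to -0.83 without IFN-beta well 1. Of these 25, 8 rose with LPS. Ahr, the aryl hydrocarbon receptor, read 4.90 and 5.10 with IFN-beta, 8.94 and 9.02 with LPS, and 6.38 and 6.17 at 0 h, which put IFN-beta 15.8-fold below LPS. Cav1 (caveolin 1), Ednrb (an endothelin receptor), Trib1, Irak3, Klf7, Pilra and AI504432 were the others. The genes lowered equally by both were led by Bank1, Dctd, Brca2 and Map2k6, and Bank1 averaged 4.98 with IFN-beta, 4.68 with LPS and 7.13 at 0 h.

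The classes rest on the levels of the 6 arrays at 8 h and 0 h, and were read again in other arrays of the series. The intervals of the class rules, however, used the spread pooled over all arrays of the series, including those read again. The readings are therefore not fully separate from the classes, and the part of this in the shares below was not tested. With only the arrays compared in the fit, 229 genes were equal (198 in the main fit). In that fit 52 were raised only by IFN-beta (51) and 424 only by LPS (396). Wells at 2 h and 24 h, in the same strain with the same doses, and C57BL/6 wells given 5 ng/ml LPS for 8 h, set against C57BL/6 wells at 0 h, gave 3 such readings with 2 arrays a group. The readings at 2 h and in C57BL/6 were added after the design had been written. At 24 h the stimuli differed in 8.37% of all genes, and the difference itself changed between 8 h and 24 h in 5.34%, upward in 2.56% and downward in 2.78%. All of the arrays of these readings lay in the larger of the sets of arrays described with the processing, except well 2 of each 24 h group.

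At other times part of the equal genes differed between the stimuli. At 2 h, 59 of the 198 were higher with IFN-beta than with LPS (29.8%, against 0.94% of all genes) and 4 were lower (2.02%, against 1.61%), with a median difference of 0.63 log2. The 4 lower ones were Bmt2, Eno2, Rnf19b and Slco4a1, named after their values were seen. At 24 h the order had turned, with 0 of the 198 higher with IFN-beta and 61 lower (30.8%, against 3.86% of all genes), and a median difference of -0.68. Without well 2 of both 24 h groups, which leaves 1 array of each 24 h group, assumed to vary like the others, 62 were lower. Mx1 shows the course, with a difference of 4.18 at 2 h, -0.10 at 8 h and -2.50 at 24 h (adjusted p = 1.8e-10, 0.91 and 3.3e-06).

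Over the whole course the equal genes stood higher with IFN-beta at the early times and higher with LPS at the end. Their median change over 0 h was 0.42, 0.69, 1.77, 1.62 and 0.63 log2 at 1, 2, 4, 8 and 24 h with IFN-beta, and 0.08, 0.05, 1.06, 1.74 and 1.36 with LPS. The curves crossed near 8 h, the time at which equality was defined. The genes raised only by LPS kept medians between -0.04 and 0.05 with IFN-beta at every time, and the medians with LPS were 0.34, 0.54, 1.30, 1.69 and 1.25. All these medians share the 0 h arrays, and are given as a description.

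**Figure D4:**
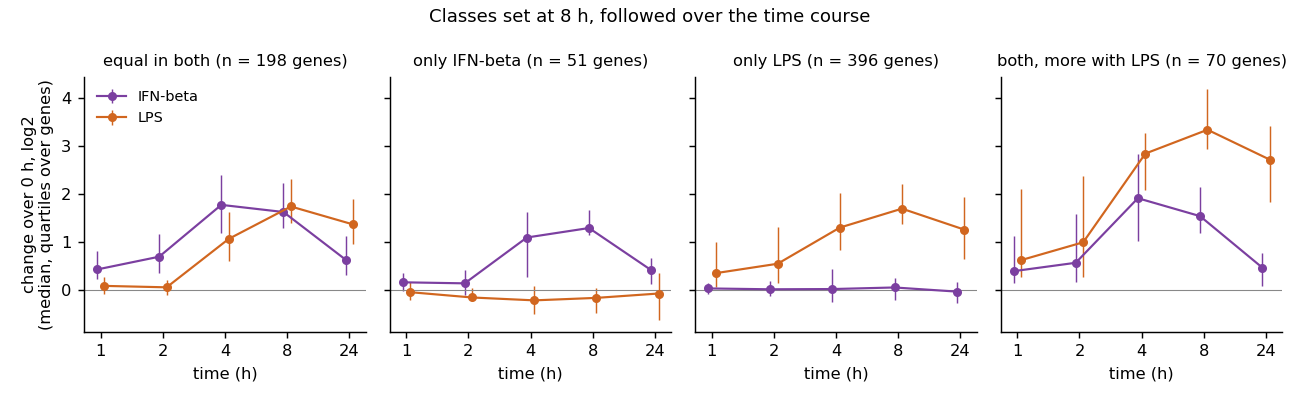
Median change over 0 h (vertical axis, log2 intensity) at 1, 2, 4, 8 and 24 h (horizontal axis, not to scale) with IFN-beta and with LPS, for 4 classes set at 8 h; bars are the quartiles over the genes of a class. The equal genes stand higher with IFN-beta at 1, 2 and 4 h and lower at 24 h, while the genes of a single stimulus stay near 0 with the other one.

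The genes raised only by IFN-beta kept their order at 24 h in part. At 2 h 5 of the 51 were higher with IFN-beta than with LPS (9.8%, against 0.94% of all genes), namely Gadd45g, Il21r, Mppe1, Tppp3 and Treml2. None were lower (1.61% of all genes). At 24 h 17 were higher (33.3%, against 4.51% of all genes) and 4 were lower (7.84%, against 3.86%). Map2, Gnal, Ank2, Gprc5b, Sox4 and Treml2 were among the higher ones, with differences of 1.45 to 2.35 log2. The 4 lower ones were A530064D06Rik, Il21r, Nol4l and Vegfa. Of the genes raised only by LPS, at 24 h 244 of the 396 were lower with IFN-beta (61.6%, against 3.86% of all genes). Prkg1 and Prr5l were the 2 higher ones (0.505%, against 4.51%). At 2 h 123 were lower (31.1%, against 1.61%). Another 4 were higher at 2 h (1.01%, against 0.94%), namely Ch25h, Nfil3, Tagap and Zfp324. Of the 70 genes raised more with LPS, 62 were lower with IFN-beta at 24 h (88.6%).

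C57BL/6 macrophages gave a reading of the LPS side in another strain. LPS raised 153 of the 198 equal genes there (77.3%, against 4.23% of all genes), 255 of the 396 genes of LPS only (64.4%) and 66 of the 70 genes raised more with LPS (94.3%), and lowered none of these. Of the 51 genes raised only by IFN-beta in BALB/c cells, LPS raised 2 in C57BL/6 cells (3.92%) and lowered 5 (9.8%, against 5.77% of all genes). The raised ones were Dio2 (1.53 ± 0.15 log2) and Klrg2 (1.02 ± 0.21), and the lowered ones were Fos, Mex3b, Nol4l, Serpinb6b and Vegfa. The starting levels differed between the strains. At 0 h the median gene of the equal class stood 0.33 log2 higher in C57BL/6 than in BALB/c cells and 27 of the 198 were at least 1 log2 higher, and the genes raised more with LPS stood 0.90 higher (29 of the 70 by at least 1 log2), whereas at 8 h with LPS these medians were -0.06 for the equal class and -0.15 for the genes raised more with LPS. The part of this difference in the C57BL/6 counts was not tested. IFN-beta in C57BL/6 cells was not analysed here.

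Promoter sequences were then searched for the motifs of the pathways in windows of 300 bases, 250 before and 50 after the start, on both strands. The windows of RefSeq (GRCm38.p6) covered 154 of the 198 equal genes, 39 of the 51 genes of IFN-beta only, 308 of the 396 genes of LPS only and 48 of the 70 raised more with LPS. The ISRE core (GAAA, any 2 bases and GAAA) was in 15.1% of the windows of equal genes, 5.36% of those of IFN-beta only (3 of 56 windows), 3.03% of those of LPS only and 12.5% of those of genes raised more with LPS, against 3.44% of all 32851 windows. The NF-kB consensus was in 10.2% of the windows of equal genes, 12.5% of those of IFN-beta only, 14.5% of those of LPS only and 21.4% of those of genes raised more with LPS, against 8.46% of all. The GAS core TTCNNNGAA was in 7.14% to 9.27% of the windows of these 4 classes, against 8.3% of all. The AP-1 site TGANTCA was in 7.8% of the windows of equal genes, 1.79% of those of IFN-beta only (1 of 56), 6.76% of those of LPS only and 14.3% of those of genes raised more with LPS, against 7.81% of all. Over all windows an ISRE match overlapped a GAS match in 24, an NF-kB match in 2, and GAS overlapped NF-kB in 25 and AP-1 in 15. A match is a description of the letters and not of binding.

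**Figure D5:**
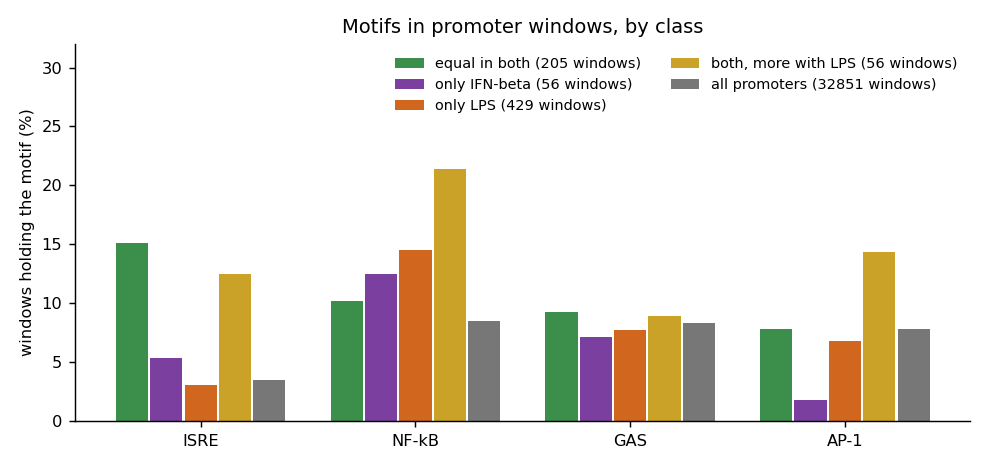
Share of promoter windows of 300 bases that hold each motif (vertical axis, %), for 4 classes of raised genes and for all promoters; bars start at 0. ISRE bars of the equal genes (15.1%) and of the genes raised more with LPS (12.5%) stand above that of all promoters (3.44%), and the tallest NF-kB bar is that of the genes raised more with LPS (21.4%).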

How the data were processed

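Total RNA of 64 cultures was read on Affymetrix arrays. The authors deposited 1 table of probe set intensities, processed with Affymetrix Expression Console 1.1 per the submitters' processing notes; the normalisation is not given in the sources used here. The deposited values were on a linear intensity scale (array medians 25.61 to 29.03), so log2 was taken here. Of 35556 probe sets, 21218 name 1 gene, 1881 several and 12457 none in the platform annotation; only the first were used, and 21185 of these matched RefSeq by gene ID. The brightest probe set was kept for 1386 genes with several, leaving 18820 genes.

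limma 3.58.1 in R 4.3.3 fitted 1 mean for each of 32 groups over all 64 arrays (32 residual degrees of freedom), with Benjamini-Hochberg adjustment over all genes. Contrasts were IFN-beta against LPS at 8, 24 and 2 h, either stimulus at 8 h against 0 h, the 24 h minus 8 h difference, and LPS at 8 h against 0 h in C57BL/6. The number of arrays limits the precision. Genes, lists and classes were chosen with earlier results of these data known. The genes named are those with the largest differences in each direction, the largest changes in each class, up to 4 members of each list and class and those nearest the class limits, each with arrays of the groups apart and without gene-model names; other genes were named after their values were seen. Promoters were read singly for the 3 highest-ranked genes of each class with an entry in the table, leaving out genes on chromosome 18. Those shown were picked from these, or added, after their motifs were seen.

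Well numbers did not pair the groups at 8 h and 0 h. There the replicate differences correlated at 0.042 between IFN-beta and LPS, -0.015 between IFN-beta and 0 h and -0.012 between LPS and 0 h. At 24 h those of IFN-beta and LPS correlated at 0.55, and the main fit did not pair these wells. A principal component analysis of what differed between the 2 wells of each group, taken over unnamed probe sets, set 11 arrays apart from the other 53; all 6 arrays compared lay among the 53, and well 2 of both 24 h groups among the 11. Alternatives changed the normalisation, the filter on dim genes, the probe set rule, the arrays in the fit, the variance model, the minimum change, the class limits, the array set and the wells. The statistics were tested on simulated data. The other treatments and doses of the series entered the fit and, except for IFN-gamma in the closing section, are not reported here. Figures were drawn with matplotlib.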

Additional observations from a re-analysis of the deposited data

Results flagged for a closer look

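For 13 of the 18820 genes the IFN-beta minus LPS difference was called in opposite directions at 8 h and at 24 h. Over all genes, the change of the difference itself was called in 5.34%. In genes picked for opposite calls this change is large by that choice. Its test (limma, adjusted p from 8.6e-05 for Slamf8 downward) is therefore no separate support. The difference moved from the side of IFN-beta at 8 h to the side of LPS at 24 h for 8 of the 13 genes. The move (24 h minus 8 h, log2) was -4.457 for Vegfa, -4.315 for Il21r, -3.723 for Trib3, -3.627 for A530064D06Rik, -3.281 for Fgl2, -2.647 for Nol4l, -2.285 for Tgfbi and -2.224 for Slamf8. Il21r stood 1.59 above LPS at 8 h and -2.73 at 24 h, and Vegfa 1.80 and -2.66. Fgl2 (1.08 at 8 h) and Slamf8 (1.01) lay near the limit of a call at 8 h.

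The other 5 moved the opposite way, from the side of LPS at 8 h to that of IFN-beta at 24 h. The values were 3.085 for Cd83, a marker of mature dendritic cells also made by macrophages, 2.747 for Arhgap26, 2.349 for Tsc22d1, 2.192 for Prr5l and 2.153 for Prkg1. Cd83 differed by -1.74 at 8 h and 1.34 at 24 h. Well 2 of both 24 h groups belongs to the smaller set of arrays, and the part of that set in these values was not tested gene by gene.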

How the results depend on the processing

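Without a minimum change, calls grew to 4719 for IFN-beta against LPS at 8 h, 3581 for IFN-beta and 6555 for LPS against 0 h, 5089 at 24 h and 2593 for the 24 h minus 8 h difference, and the classes grew to 784 equal genes, 329 of IFN-beta only and 1031 of LPS only. With interval limits of 1.5-fold in place of 2-fold, 96 genes were equal, 43 were raised only by IFN-beta and 270 only by LPS. These moves follow from the rules themselves. Under the other alternatives the counts stayed within 1.5 times. Without each well in turn the counts ran from 1350 to 1462 for IFN-beta against LPS at 8 h, 706 to 791 for IFN-beta and 2332 to 2475 for LPS against 0 h, 1619 to 1731 at 24 h, 984 to 1143 for the move between times, 170 to 205 equal genes, 45 to 51 of IFN-beta only and 371 to 412 of LPS only. With the replicate number as a block, the counts were 1362, 732, 2372, 1575 and 1008 for the comparisons, and 198, 51 and 396 for the classes. The numbers did not pair the wells at 8 h and 0 h, whereas the replicate differences at 24 h correlated at 0.55. The readings of the classes in other arrays, chosen after seeing the data, stayed within 1.5 times without each array read.

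Of 1448 values of named genes under alternatives 1392 kept their call (for equal genes, their interval), 45 from 18 genes lost it and 11 gained a call. Direction was followed only for called differences, and 0 of those changed it. The scaling of arrays moved the median difference between IFN-beta and LPS from 0.04 to near 0 (centred) or 0.02 (quantile). Signal near background limits dim genes: the lowest 40% of all values lay under 4.49 log2, and Ifnb1 lay near that level. With 2 wells a group, which may come from 1 preparation of cells, no value here covers differences between animals.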

Other observations

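The same genes can be followed under IFN-gamma, the type II interferon, in the same time course. Its changes over 0 h share the 0 h arrays with the classes, so they are given side by side and not as a test. At 8 h the median change of the 198 equal genes was 1.62 log2 with IFN-beta, 1.74 with LPS and 0.97 with IFN-gamma. For the 51 genes raised only by IFN-beta it was 1.29 with IFN-beta, -0.17 with LPS and 0.53 with IFN-gamma. For the 396 genes raised only by LPS it was 0.05 with IFN-beta, 1.69 with LPS and 0.12 with IFN-gamma. Over all genes the medians at 8 h lay between -0.04 and -0.02. At 24 h the equal genes had a median of 0.63 with IFN-beta, 1.36 with LPS and 1.06 with IFN-gamma, and the 6 genes raised more with IFN-beta had 1.13 with IFN-beta, 1.64 with LPS and 3.04 with IFN-gamma.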
